A study of Sus scrofa with 9 samples.

Results

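The interleukin 6 receptor chains IL6R and IL6ST were examined together with 4 genes that act below them, STAT3, SOCS3, JAK1 and JAK2, in sorted T cells from the blood of sows. Members were all probes whose sequence accession belongs to one of these 6 pig genes. The 6 are among 3052 genes that could be named on the array, and they held 17 of its 43603 probes that are not controls. There were 3 probes for IL6R, 2 for IL6ST, 4 for STAT3, 5 for JAK1, 2 for JAK2 and 1 for SOCS3. Of the 17, 14 passed the filter for testing, by which some fraction must have all 3 of its arrays well above background. The probe of SOCS3 and both probes of JAK2 did not. The gene set was selected on these same signals, because IL6R and IL6ST were far lower in the fraction without CD4. Their values against the CD8 fraction are therefore given as a description. No p is given for them, and the numbers of calls are printed with nothing read from them.

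Each of the 9 samples was 1 single-colour array, with 3 arrays (n = 3) per fraction. Sorted CD3+CD4+CD8+ cells are here DP (double positive), CD3+CD4+ cells are the CD4 fraction and CD3+CD8+ cells are the CD8 fraction, also written CD4 cells and CD8 cells. All 3 came from blood mononuclear cells of sows. The labels name no treatment, and do not give breed, age, antibodies or sort purity. The labels speak of biological replicates, but the number of sows is not stated, so the p-values measure the spread between these arrays. The stated design set DP against each of the other fractions, and the CD4 fraction against the CD8 fraction is given beside them.

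Interleukin 6 acts through 2 kinds of chain. IL6R binds the cytokine but does not signal by itself, and IL6ST, also called gp130, carries the signal and is shared with other cytokines of the family. The Janus kinases JAK1 and JAK2 sit on the tail of IL6ST, and JAK1 is the kinase on which signalling mainly depends in human and mouse cells. They phosphorylate STAT3, which enters the nucleus and drives target genes, among them SOCS3, which binds IL6ST and shuts the signal off. In human and mouse blood, IL6R is carried by naive and central memory T cells, more by CD4 than by CD8 cells, and is lost after activation, while IL6ST is found on most cells.

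Signal is given as log2 of the scanner software's processed signal with the 75th percentile of the array subtracted, so that 0 is the 75th percentile of all probes on that array. The 75th percentile itself lay between 15.2 and 84.1 signal units over the 9 arrays, and 32.6% to 53.7% of probes were well above background. The arrays came from 3 slides, of which 1 held DP array 1 alone. T cell receptor chains CD3D, CD3E, CD3G and CD247 were well above background on all 9 arrays. CD4 averaged 2.14 ± 0.91 in DP, 1.92 ± 0.44 in CD4 and -2.04 ± 1.24 in CD8 cells (mean ± SD, n = 3). CD8A averaged 3.47 ± 0.76 in DP, 0.27 ± 0.67 in CD4 and 5.35 ± 0.57 in CD8 cells. Each coreceptor was thus lowest in the fraction sorted without it.

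All 5 receptor probes were brighter on every DP array and every CD4 array than on any CD8 array. IL6R, the chain that binds the cytokine, was 12.9-fold higher in DP than in CD8 cells by its brightest probe and 11.6-fold higher in CD4 than in CD8 cells. That probe was well above background on 1 of 3 CD8 arrays, so its folds rest on dim CD8 signals, and on the log2 scale DP minus CD8 was 2.85 without CD8 array 2 and 4.38 without CD8 array 3. IL6ST, the signalling chain, was 6.04-fold higher in DP than in CD8 cells and 9.39-fold higher in CD4 than in CD8 cells. STAT3 and JAK1, which act below the receptor, overlapped between all fractions. In RNA from whole fractions, fewer cells that carry a transcript and less of it per cell cannot be told apart.

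The brightest IL6R probe (A_72_P035481) read 1.71, 2.01 and 1.34 on DP arrays 1, 2 and 3. It read 2.02, 1.17 and 1.42 on the CD4 arrays. It read -1.70, -3.68 and -0.62 on the CD8 arrays. The DP and CD4 arrays lay within 1 range, and the CD8 arrays were all below it and spread more widely. CD8 array 3 was the one CD8 array on which this probe was well above background, and the value on CD8 array 2 was the lowest that any probe had on that array. The means were 1.68 ± 0.34 in DP, 1.54 ± 0.44 in CD4 and -2.00 ± 1.55 in CD8 cells (SD, n = 3). The fitted difference was 3.69 (SE 0.65) for DP minus CD8 and 3.54 (SE 0.65) for CD4 minus CD8.

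The second IL6R probe (A_72_P705280) read 1.70, 1.73 and 0.48 on DP arrays 1, 2 and 3, 1.72, 0.59 and 0.34 on CD4 arrays 1, 2 and 3, and -0.82, -3.15 and -1.29 on CD8 arrays 1, 2 and 3. It was well above background on CD8 arrays 1 and 3 but not on CD8 array 2. The fitted difference was 3.05 (SE 0.65) for DP minus CD8 and 2.64 (SE 0.65) for CD4 minus CD8. Without CD8 array 2 these were 2.36 and 1.94. The third (A_72_P474892) read 0.40, 0.43 and 0.80 on DP arrays 1, 2 and 3, 1.25, 0.013 and -0.47 on CD4 arrays 1, 2 and 3, and -2.36, -3.68 and -2.37 on CD8 arrays 1, 2 and 3. None of its CD8 values was well above background. For such a probe only a bound can be given, which sets the brighter fraction's mean against the dimmest signal that counts as well above background on each CD8 array, or the probe's own signal if higher. On that basis the third probe was at least 3.83-fold higher in DP than in CD8 cells and at least 3.16-fold higher in CD4 than in CD8 cells.

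The 3 IL6R probes moved together across the 9 arrays, with Pearson correlations of 0.94 to 0.95 between pairs. These are descriptions over n = 9 arrays that share their RNA and scaling. After each fraction's mean was taken off, the same pairs correlated at 0.70 to 0.81. DP array 3 was the dimmest of its fraction for the first 2 probes and the brightest for the third. CD4 array 1 was the brightest of its fraction for all 3 probes, and CD8 array 2 the dimmest of its fraction for all 3.

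**Figure D1:**
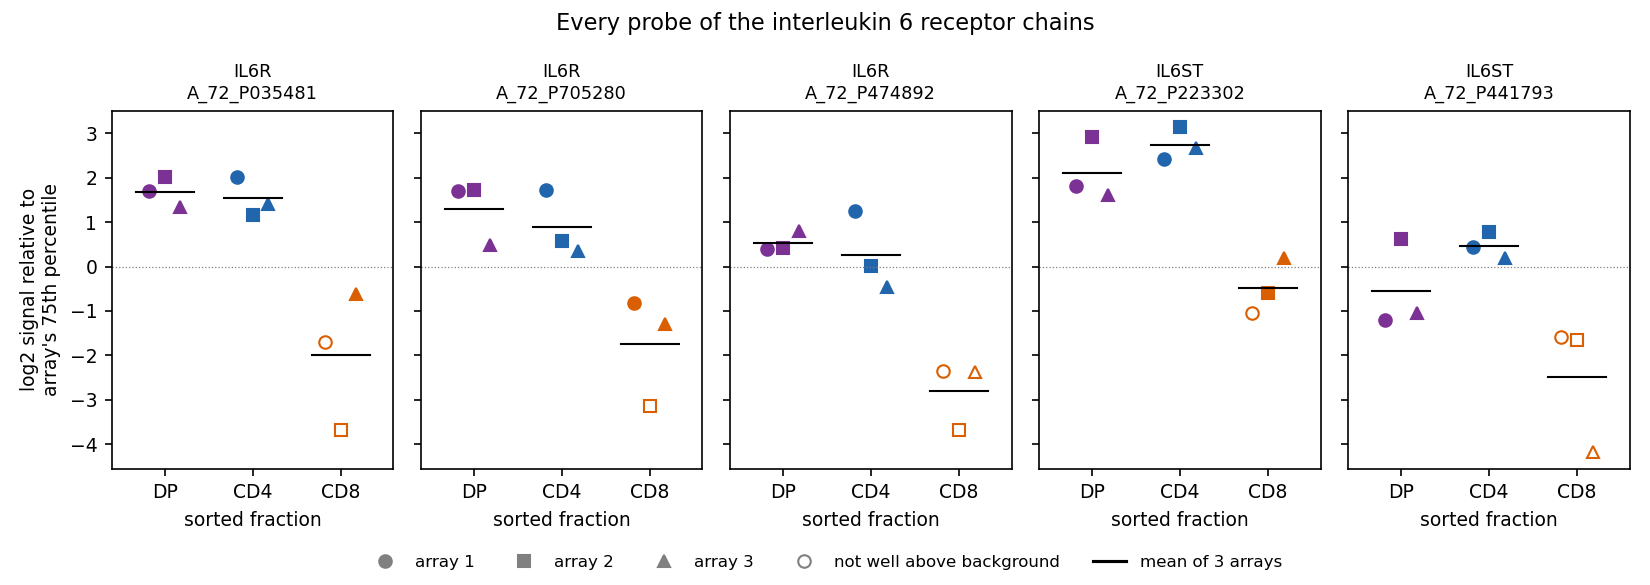
Log2 signal relative to the array's 75th percentile for the 3 IL6R and 2 IL6ST probes in the DP, CD4 and CD8 fractions; each point is 1 array, open points were not well above background, and bars are means of 3 arrays. In all 5 panels the DP and CD4 arrays lie above the CD8 arrays, and the IL6R means of DP and the CD4 fraction lie within 0.42 of each other.

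By the means, DP stood below the CD4 fraction for IL6ST and above it for IL6R. The genes were not tested against each other. The brighter IL6ST probe (A_72_P223302) read 1.81, 2.92 and 1.60 on DP arrays 1, 2 and 3, 2.42, 3.14 and 2.68 on CD4 arrays 1, 2 and 3, and -1.05, -0.59 and 0.19 on CD8 arrays 1, 2 and 3. DP overlapped the CD4 fraction through DP array 2 alone, and both lay above the CD8 fraction. The means were 2.11 ± 0.71 in DP, 2.75 ± 0.37 in CD4 and -0.48 ± 0.63 in CD8 cells (SD, n = 3), and 2 of 3 CD8 arrays were well above background. The fitted difference was 2.59 (SE 0.48) for DP minus CD8 and 3.23 (SE 0.48) for CD4 minus CD8.

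The dimmer IL6ST probe (A_72_P441793) read -1.21, 0.62 and -1.06 on DP arrays 1, 2 and 3, 0.44, 0.79 and 0.19 on CD4 arrays 1, 2 and 3, and -1.60, -1.65 and -4.19 on CD8 arrays 1, 2 and 3. Here DP arrays 1 and 3 stood closer to the CD8 arrays 1 and 2 than to any CD4 array, while DP array 2 lay among the CD4 arrays. No CD8 array was well above background for it, and the reading on CD8 array 3 was the lowest on that array. It was at least 1.80-fold higher in DP than in CD8 cells and at least 3.65-fold higher in CD4 than in CD8 cells. The 2 IL6ST probes correlated at 0.75 over the 9 arrays but at -0.053 once fraction means were removed, so inside fractions they did not rank the arrays alike.

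Between DP and the CD4 fraction the receptor chains were tested, since this comparison was not the one that drew attention to them. No receptor probe passed the test. IL6R gave differences of 0.15 to 0.42 over its 3 probes for DP minus CD4, and the brightest had a 95% interval of -1.27 to 1.56 (limma adjusted p = 0.9999). IL6ST gave -0.64 and -1.02, and the brighter probe had an interval of -1.68 to 0.40 (limma adjusted p = 0.9999). The order of IL6R levels was thus DP, CD4 fraction and CD8 fraction for each of its probes, and that of IL6ST was CD4 fraction, DP and CD8 fraction for both. DP and the CD4 fraction, neighbours in both orders, did not differ beyond their spread.

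Among the tested member probes, 0 of 14 passed a limma adjusted p of 0.05 for DP minus CD4, where 0.293% of all 16023 tested probes did, 0.225% higher and 0.0687% lower. None of the 14 had an unadjusted p under 0.05 there, which 4.84% of all tested probes had. For DP minus CD8, 3 of 14 passed, all higher in DP, beside 0.131% of all tested probes called higher and 0.181% called lower. These were 2 IL6R probes and 1 IL6ST probe. For CD4 minus CD8 the same 3 probes passed, all higher in the CD4 fraction, beside 0.112% of all. Since these last contrasts drew attention to the receptor, nothing is read from their counts. The counts also hung on single arrays. For DP minus CD8 the count was 0 without DP array 1 or 2, CD4 array 2 or 3, or CD8 array 1 or 2, and 1 without DP array 3 or CD8 array 3. For CD4 minus CD8 it was 0 without CD4 array 2 or CD8 array 2, and 1 without DP array 1, CD4 array 1 or 3, or CD8 array 1.

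Leaving out each array in turn, the brightest IL6R probe gave 2.85 to 4.38 for DP minus CD8 and 2.70 to 4.23 for CD4 minus CD8. The brighter IL6ST probe gave 2.19 to 2.93 for DP minus CD8 and 2.95 to 3.57 for CD4 minus CD8. The dimmer IL6ST probe gave 1.07 to 2.37 for DP minus CD8, with 1.07 without CD8 array 3, against 1.93 with all arrays. Within a slide the differences were more uneven. For DP minus CD8, IL6R differed by 4.70 on slide 2 and 1.96 on slide 3, and IL6ST by 3.74 and 1.41. For CD4 minus CD8, IL6R differed by 3.86 on slide 2 and 2.34 on slide 3, and IL6ST by 3.96 and 2.36. All 8 within-slide differences were positive. Their sign was fixed in advance, because every DP and CD4 array lay above every CD8 array for these probes. Slide 2 held 1 DP, 1 CD4 and 2 CD8 arrays, and slide 3 held 1 DP, 2 CD4 and 1 CD8 array. For DP minus CD4, slides 2 and 3 gave 0.84 and -0.38 for IL6R, and -0.22 and -0.95 for IL6ST.

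STAT3, the transcription factor that the receptor activates, passed in no comparison. Its brightest probe (A_72_P232807) read 1.51, 2.16 and 2.50 on DP arrays 1, 2 and 3, 1.60, 2.04 and 2.09 on CD4 arrays 1, 2 and 3, and 1.97, 2.12 and 1.80 on CD8 arrays 1, 2 and 3. All 9 readings were well above background and the fractions overlapped throughout. The means were 2.05 ± 0.50 in DP, 1.91 ± 0.27 in CD4 and 1.97 ± 0.16 in CD8 cells (SD, n = 3). The difference was 0.15 for DP minus CD4, 0.090 for DP minus CD8 and -0.057 for CD4 minus CD8 (SE 0.39 each). Their 95% intervals ran from -0.70 to 0.99, from -0.76 to 0.94 and from -0.90 to 0.79, and no limma adjusted p was under 0.9992. On slides 2 and 3 it differed by 0.12 and 0.66 for DP minus CD4, 0.11 and 0.70 for DP minus CD8, and -0.0052 and 0.040 for CD4 minus CD8.

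The other 3 STAT3 probes did not pass either. Over all 4 probes and 3 comparisons the differences ran from -0.93 to 0.86. The lowest came from the probe A_72_P669204, which was well above background on 2 of 3 DP arrays, 1 of 3 CD4 arrays and all 3 CD8 arrays. The probe A_72_P349223 was above background on all 9 arrays and gave 0.86 (SE 0.62) for DP minus CD4 and 0.64 (SE 0.62) for DP minus CD8, within the spread of the DP arrays, which ran from -0.20 to 1.80. Pairs of STAT3 probes correlated from -0.67 to 0.75 over the 9 arrays, so they did not rank the arrays alike. The lowest correlation was between the brightest probe and A_72_P349223.

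JAK1, the main kinase of the receptor, was well above background by all 5 probes on all 9 arrays. Its brightest probe (A_72_P304819) read 6.61, 6.43 and 6.77 on DP arrays 1, 2 and 3, 6.23, 7.33 and 6.78 on CD4 arrays 1, 2 and 3, and 7.05, 7.07 and 6.58 on CD8 arrays 1, 2 and 3. The fractions overlapped. The difference was -0.18 for DP minus CD4, -0.30 for DP minus CD8 and -0.12 for CD4 minus CD8 (SE 0.35 each), with 95% intervals from -0.93 to 0.58, from -1.05 to 0.46 and from -0.87 to 0.64. Over its 5 probes and 3 comparisons JAK1 differences ran from -0.30 to 0.28, and the 95% intervals of all 15 lay between -1.20 and 1.43. Its brightest probe differed within slides 2 and 3 by -0.90 and 0.26 for DP minus CD4, -0.63 and 0.19 for DP minus CD8, and 0.27 and -0.071 for CD4 minus CD8. No JAK1 difference passed the test, and the lowest limma adjusted p was 0.9992.

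In all, none of the 27 tested differences of STAT3 and JAK1 had an unadjusted p under 0.05, which 4.84% of all tested probes had for DP minus CD4, 6.52% for DP minus CD8 and 4.54% for CD4 minus CD8, and in none did the fractions separate. The shares of all tested probes whose arrays did not overlap between fractions were 10.1% for DP and CD4, 9.79% for DP and CD8 and 8.01% for CD4 and CD8. All 5 receptor probes separated for DP against CD8 and for CD4 against CD8, and none for DP against CD4. Because IL6R and IL6ST were chosen for being lower in the CD8 fraction, nothing is read from their separation from it. Probes of the same gene are also not independent.

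**Figure D2:**
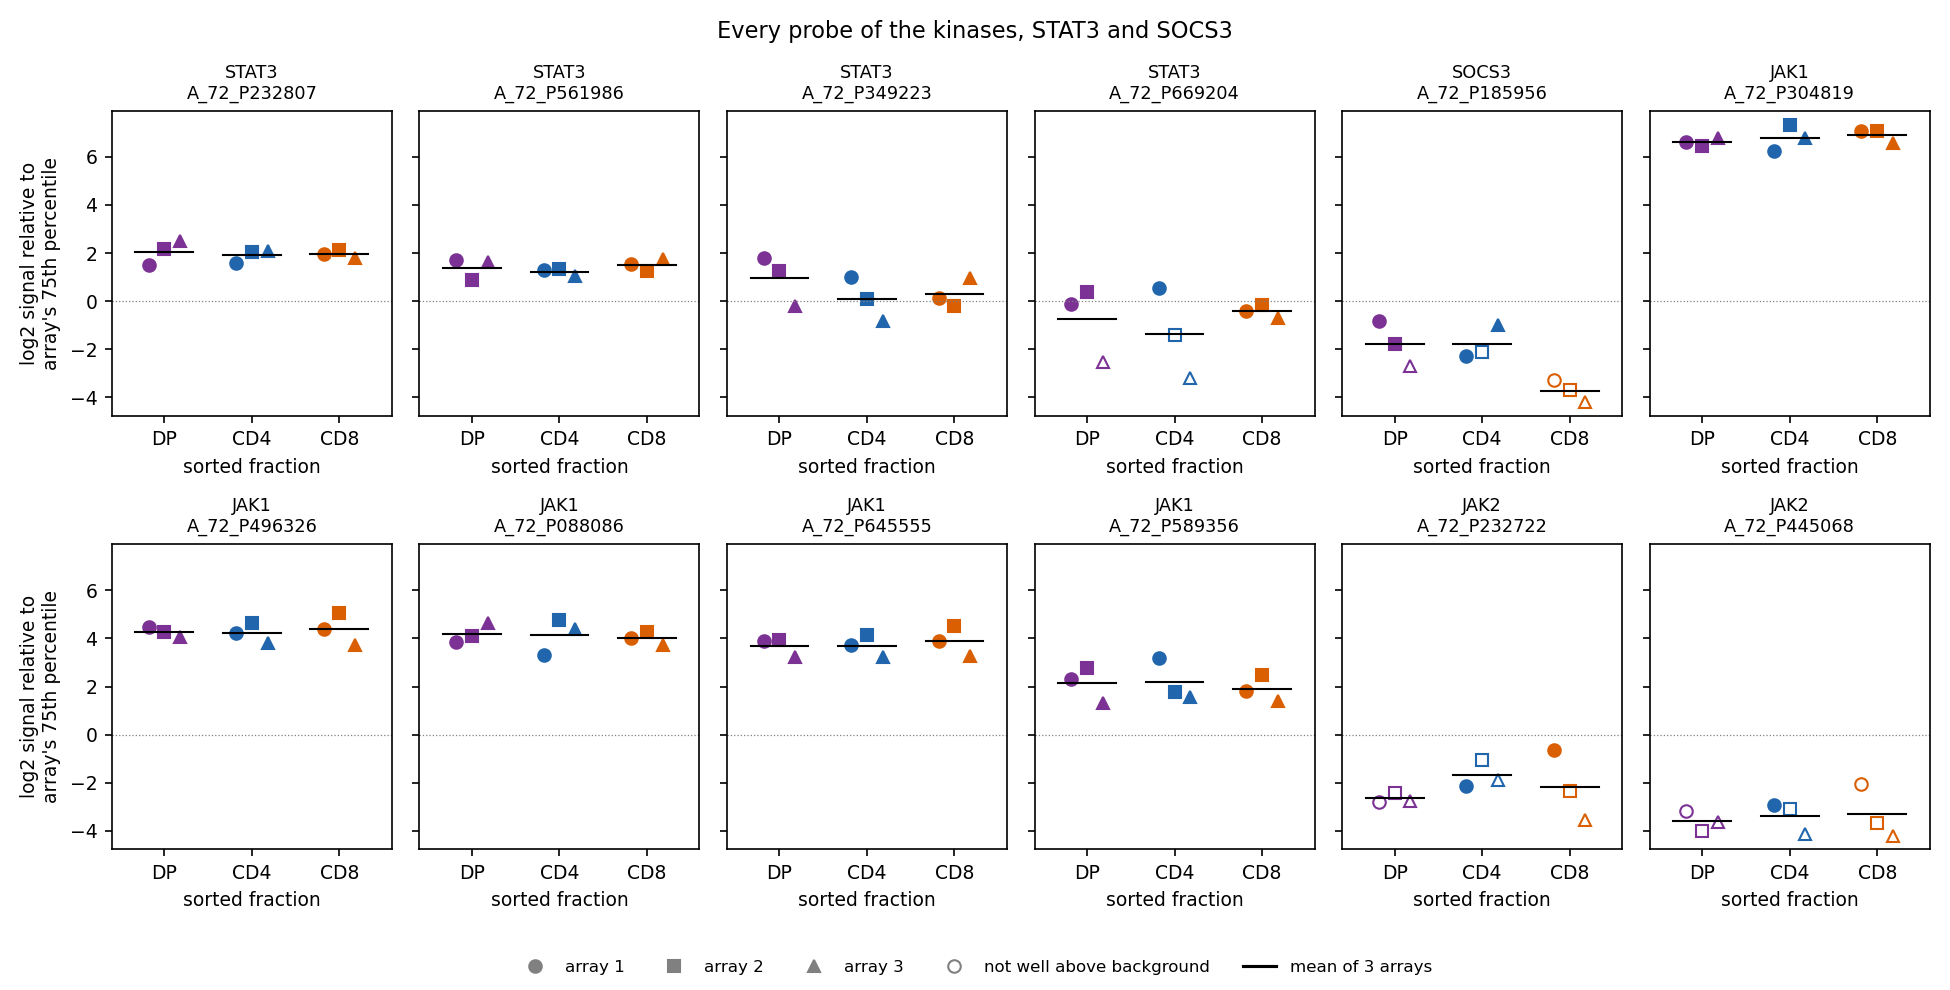
Log2 signal relative to the array's 75th percentile for the 12 probes of STAT3, SOCS3, JAK1 and JAK2, drawn as for the receptor probes. STAT3 and JAK1 probes overlap between fractions, while SOCS3 and JAK2 lie near background, with SOCS3 not well above background on any CD8 array.

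SOCS3, the feedback inhibitor, and JAK2 lay near background and were not tested. SOCS3 read -0.83, -1.76 and -2.69 on DP arrays 1, 2 and 3, -2.27, -2.12 and -0.99 on CD4 arrays 1, 2 and 3, and -3.27, -3.68 and -4.19 on CD8 arrays 1, 2 and 3. It was well above background on 2 of 3 DP arrays, 2 of 3 CD4 arrays and none of the CD8 arrays. Each of its CD8 readings was the lowest that any probe had on that array. The DP and CD4 readings were all above the CD8 readings, but the mean of either fraction did not exceed the dimmest signal counted as well above background on the CD8 arrays, so no fold is given.

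JAK2, which acts beside JAK1, was well above background on 1 CD4 array and 1 CD8 array by its brighter probe (A_72_P232722) and on 1 CD4 array by the other (A_72_P445068). The brighter probe read -2.79, -2.41 and -2.74 on DP arrays 1, 2 and 3, -2.14, -1.05 and -1.86 on CD4 arrays 1, 2 and 3, and -0.63, -2.36 and -3.55 on CD8 arrays 1, 2 and 3. No DP array was well above background for either probe, and the second probe had the lowest reading of the array on 5 of 9 arrays. By the second probe the fractions averaged -3.60 in DP, -3.37 in CD4 and -3.31 in CD8 cells and overlapped. The brighter probe's DP readings all lay below its CD4 readings, with 1 of these 6 readings well above background, so no fold is given.

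**Figure D3:**
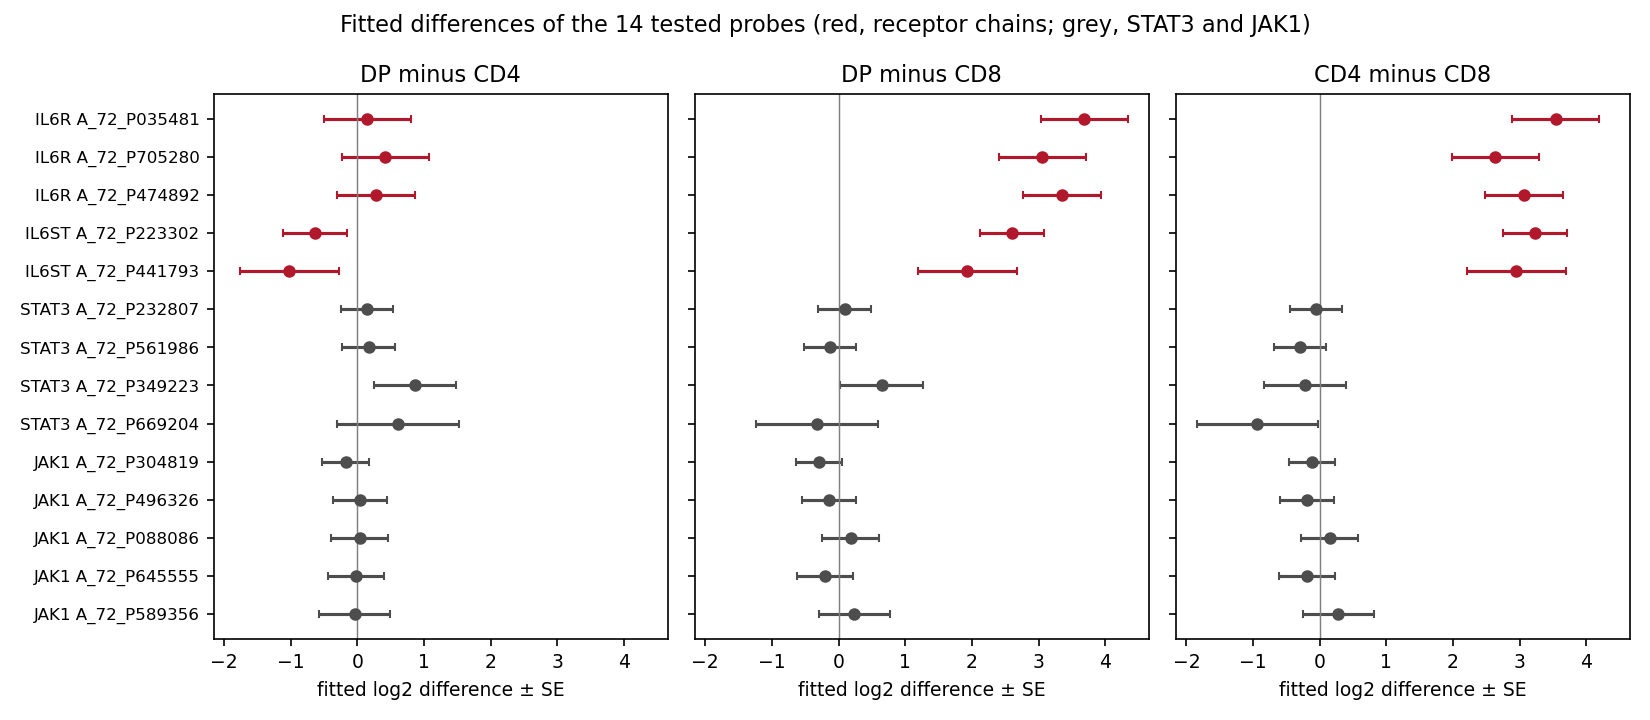
Fitted log2 differences with standard errors for the 14 tested probes, in 3 panels for DP minus CD4, DP minus CD8 and CD4 minus CD8. The receptor probes lie to the right of 0 against the CD8 fraction, where A_72_P474892 and A_72_P441793 were well above background on no CD8 array and have only a bound, and the 9 probes of STAT3 and JAK1 between -0.93 and 0.86 in all 3 panels.

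Other genes of the pathway were taken from 6 lists drawn from textbook knowledge, 86 genes in all. Of these, 35 were named on the array and 25 were tested, each by its brightest tested probe. None of the 25 passed limma's adjusted p of 0.05 for DP minus CD4, DP minus CD8 or CD4 minus CD8, at backgrounds of 0.293%, 0.312% and 0.437% of all tested probes. At an unadjusted p under 0.05 there were 3, 5 and 1, beside 4.84%, 6.52% and 4.54% of all tested probes. Their median differences were 0.25, 0.31 and 0.13, beside -0.0245, -0.027 and -0.013 over all tested probes.

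Of 16 ligands and receptors that share IL6ST or belong to its family, 3 were named on the array and none could be tested. IL6 itself had 2 probes and LIF 1, and none was well above background on any array. IL27 was well above background on 1 CD4 array. The other Janus kinases and STATs had 7 of 8 members tested, with median differences of -0.16 for DP minus CD4, 0.0068 for DP minus CD8 and 0.13 for CD4 minus CD8. STAT5A, which serves interleukin 2 and interleukin 7 receptors, read 2.04, 2.35 and 1.20 on DP arrays 1, 2 and 3, 1.64, 1.57 and 1.25 on CD4 arrays 1, 2 and 3, and 1.14, -0.82 and 1.01 on CD8 arrays 1, 2 and 3, and its 1.42 (SE 0.54) for DP minus CD8 did not pass (limma adjusted p = 0.603). TYK2, a kinase that can also bind IL6ST, gave 0.88 (SE 0.40) for DP minus CD8 (limma adjusted p = 0.759).

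Among negative regulators 3 of 15 were tested. SOCS2, a suppressor of cytokine signalling best known for growth hormone, averaged -0.40 ± 0.34 in DP, -2.15 ± 0.99 in CD4 and -1.72 ± 0.79 in CD8 cells. It was well above background on 3, 1 and 1 of 3 arrays, and its 1.75 (SE 0.66) for DP minus CD4 did not pass (limma adjusted p = 0.656). SOCS4 gave 0.83 (SE 0.53) for DP minus CD4 (limma adjusted p = 0.9999). PTPN1, a phosphatase that acts on Janus kinases, was the third. The list's median differences were 0.83 for DP minus CD4, 0.11 for DP minus CD8 and -0.51 for CD4 minus CD8.

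Surface IL6R is cut off cells by the proteases ADAM17 and ADAM10. Of the 4 genes on this list 3 were tested, with medians of -0.34 for DP minus CD4, 0.31 for DP minus CD8 and 0.65 for CD4 minus CD8. ADAM10 averaged 3.34 ± 0.36 in DP, 3.80 ± 0.24 in CD4 and 3.13 ± 0.45 in CD8 cells, and 0.67 (SE 0.37) for CD4 minus CD8 did not pass (limma adjusted p = 0.9992). TIMP1, an inhibitor of metalloproteases, gave 0.65 (SE 0.62) in the same comparison.

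The branch through MAP kinase and PI3 kinase had 4 of 16 genes tested, with medians of 0.25, 0.28 and 0.086 in the same order of comparisons. AKT1, a kinase of the PI3 kinase branch, gave 1.61 (SE 0.77) for DP minus CD8 (limma adjusted p = 0.793) and was well above background on 1 of 3 CD8 arrays. GRB2, an adaptor that leads to RAS, gave 0.54 (SE 0.49) there.

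Genes known to respond to STAT3 or interleukin 6 had 8 of 27 members tested, with medians of 0.30 for DP minus CD4, 1.13 for DP minus CD8 and 0.32 for CD4 minus CD8. FAS, a death receptor of activated T cells, read 2.45, 2.41 and 2.02 on DP arrays 1, 2 and 3, -0.20, 0.38 and -0.52 on CD4 arrays 1, 2 and 3, and 1.24, 1.05 and -0.83 on CD8 arrays 1, 2 and 3. The DP arrays lay above all others. The difference of 2.40 (SE 0.55) for DP minus CD4 did not pass (limma adjusted p = 0.107) but passed without CD8 array 3 (limma adjusted p = 0.0328), and 1.80 (SE 0.55) for DP minus CD8 did not pass (limma adjusted p = 0.335). BIRC5, which encodes survivin, a protein of dividing cells, averaged 1.90 ± 0.72 in DP, 0.74 ± 1.29 in CD4 and -0.54 ± 1.88 in CD8 cells, and 2.43 (SE 0.85) for DP minus CD8 did not pass (limma adjusted p = 0.513). IL21, IL17A, VEGFA and BCL2L1 were well above background on no array.

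**Figure D4:**
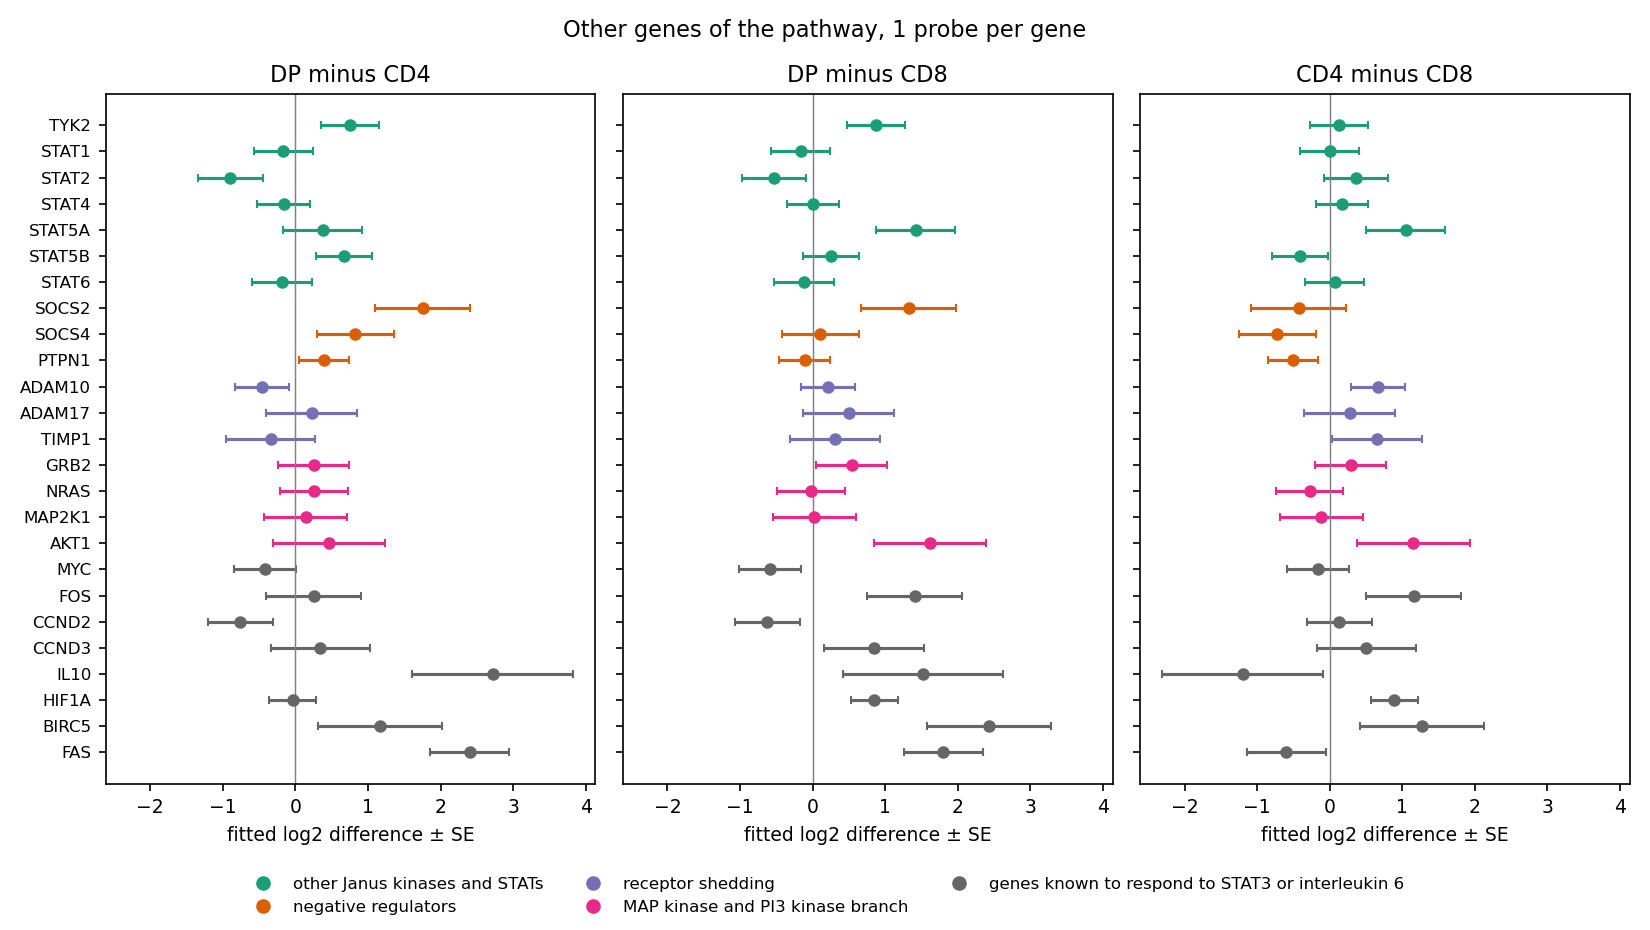
Fitted log2 differences with standard errors of 25 other genes of the pathway, 1 probe per gene, coloured by list, in 3 panels for DP minus CD4, DP minus CD8 and CD4 minus CD8. None of the 25 passed. FAS at 2.40 and IL10 at 2.72 lie farthest to the right for DP minus CD4. IL10 had an SE of 1.11 there and was well above background on 1 of 3 CD4 arrays, so its difference rests on dim CD4 signals.

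The named genes whose pattern over the 9 arrays was most like that of each receptor chain were found by Pearson correlation over 1503 other genes. This is a ranking. For the receptor probes the arrays fall apart into those with CD4 and those without, but not for every gene listed. For the brightest IL6R probe the first was CD1D, which presents lipids to T cells, at 0.92. It averaged 0.48 in DP, 0.30 in CD4 and -1.70 in CD8 cells. The next were TAP1, a peptide transporter of MHC class I loading, at 0.89, RAB11B, a small GTPase of recycling endosomes, at 0.88, STAT5A at 0.88 and EWSR1, an RNA-binding protein, at 0.87. Each of these genes read lowest on CD8 array 2, as did the IL6R probe. TAP1 read -3.68 there, not well above background. On CD8 array 3, TAP1 at -0.07 and RAB11B at -0.32 lay within the range of their DP and CD4 arrays.

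For the brighter IL6ST probe the first was FST, which encodes follistatin, at 0.92. It averaged -1.03 in DP, 0.052 in CD4 and -3.71 in CD8 cells, where no array was well above background. CD4 itself, a sorting marker, was next at 0.90. GUCD1 followed at 0.87, IVD, an enzyme of leucine breakdown, at 0.85 and PITPNC1, a lipid transfer protein, at 0.84. FST, IVD and PITPNC1 had the same order of fractions as IL6ST, while CD4 and GUCD1 averaged highest in DP. IVD averaged -0.24 in DP, 0.037 in CD4 and -1.84 in CD8 cells. PITPNC1 averaged 3.71 in DP, 4.34 in CD4 and 2.78 in CD8 cells. The lists of 5 for IL6R and for IL6ST held no gene in common. Member genes were left out of both rankings. The brightest IL6R probe and the brighter IL6ST probe correlated at 0.88 with each other, and at 0.32 once fraction means were removed.

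Markers of other cells were read beside the receptor, because monocytes and neutrophils also carry IL6R. Of 12 markers of monocytes and granulocytes 9 were named on the array. Their summed linear level, in multiples of the 75th percentile, ran from 1.84 to 8.01 in DP, 2.90 to 3.44 in CD4 and 2.76 to 10.3 in CD8 cells. S100A8, S100A9 and CD163 were well above background on no array. CD14, LYZ, CST3, S100A12, AIF1 and TYROBP were each well above background on at least 1 array of every fraction. The sums overlapped between the fractions. The sum of 4 of 6 B cell markers did not overlap between CD8 cells and the others, at 0.480 to 2.94 in DP, 1.11 to 2.37 in CD4 and 5.62 to 12.5 in CD8 cells. CD79A averaged -0.053 in DP, 0.17 in CD4 and 3.15 in CD8 cells, while BLNK was well above background on no array.

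Markers of natural killer and cytotoxic cells, 6 of 9 named, summed to 22.3 to 54.4 in DP, 4.29 to 19.8 in CD4 and 54.2 to 351.3 in CD8 cells. The highest sum came from CD8 array 2, where GZMB, a granzyme, read 7.91, against 3.33 and 2.14 on CD8 arrays 1 and 3. Of the natural killer markers, NCR1 was well above background on no array and KLRB1 only on CD8 array 1. Markers of naive and central memory T cells, 5 of 7 named, summed to 139.9 to 166.8 in DP, 264.8 to 453.6 in CD4 and 266.1 to 429.9 in CD8 cells. The ranges of CD4 and CD8 cells overlapped, and DP lay below both. LEF1, which encodes a Wnt pathway factor high in naive cells, was the brightest probe in that sum and averaged 6.86 in DP, 8.31 in CD4 and 8.17 in CD8 cells. CD28, a costimulatory receptor on the same list, was not lowest in DP, at 3.03 to 3.84 in DP, 2.70 to 3.62 in CD4 and 1.51 to 2.79 in CD8 cells. IL7R, a receptor chain of the same naive and memory cells, averaged 3.62 ± 0.80 in DP, 3.33 ± 0.52 in CD4 and 3.26 ± 0.34 in CD8 cells and passed in no comparison. The part of the monocyte and granulocyte, B cell, cytotoxic and naive cell markers in the receptor differences was not tested.

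Signal strength also differed between arrays. The 75th percentile ran from 19.0 to 42.5 on DP arrays 1, 2 and 3, from 15.2 to 84.1 on CD4 arrays 1, 2 and 3, and from 18.4 to 29.7 on CD8 arrays 1, 2 and 3. On the dimmest array of all, CD4 array 2, the brightest IL6R probe read 34.2 signal units and the brighter IL6ST probe 134.4. Both were well above background there. On the CD8 arrays 1, 2 and 3 those probes read 5.65, 1.89 and 19.2 units for IL6R and 8.88, 16.1 and 33.9 units for IL6ST. The part of array brightness in the receptor differences was not tested.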

How the data were processed

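Per the submitters' processing notes, Agilent Feature Extraction 11.0.1.1 read the scans. Its processed signal is a deposited intensity, corrected for background and not normalized between arrays. The deposited value table holds log2 values with 1 distribution in all 9 columns, made by an unnamed program, and its CD8 columns 1, 2 and 3 followed scanner files 3, 1 and 2. From the scanner files, 1 to 12 outlier spots per array were left out, spots of a probe were averaged as log2 values, and each array's 75th percentile was subtracted. A probe needed at least 2 values per fraction to be tested, and no spot was saturated.

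Probes were named by unversioned accession through RefSeq's annotation of Sscrofa11.1, which named 6730 of 43603. No coordinates or sequences are given, because the files name no genome build. All 9 arrays entered 1 fit in limma 3.58.1 (R 4.3.3; lmFit, eBayes with trend, two-sided, Benjamini-Hochberg over 16023 probes), tested on simulated data. The mean signal column was not used here, so the normexp alternative (offset 50) used the median signal. Members, lists and tests were chosen with earlier results of these data known. Genes named are all members, the 5 most correlated genes per receptor chain, sorting markers, cell markers, and per list the called genes or else the 2 with the smallest p. IL10, IL27, PTPN1, IL7R, GZMB, KLRB1 and the genes below background were named after their values were seen. Alternatives were other normalizations, no filter, blocks by replicate number or slide, no variance trend, and leaving out each array. Figures used Python 3.11.15 and matplotlib 3.10.9.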

Additional observations from a re-analysis of the deposited data

How the results depend on the processing

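The receptor chains were higher in DP and in the CD4 fraction than in the CD8 fraction under every alternative run, but the calls were not stable. Nothing is read from the constant sign, because the chains were chosen for being lower in the CD8 fraction. Leaving out an array or staying within a slide could not change it, since every DP and CD4 array lay above every CD8 array. Of the 14 tested member probes, 3 passed for DP minus CD8. This count was 1 with quantile normalization and with the deposited value table, and 0 with the percentile over detected probes, with normexp and with slide as a block. It was 0 to 2 leaving out each array. For CD4 minus CD8, 3 passed, against 1 with the percentile over detected probes and with slide as a block, 0 with normexp, and 0 to 3 leaving out each array. For DP minus CD4 it was 0 throughout. Normexp with its offset shrinks differences of dim probes by construction. It gave 1.16 for the brightest IL6R probe and 1.31 for the brighter IL6ST probe for DP minus CD8, and 1.14 and 1.69 for CD4 minus CD8, with 0.29 and 0.58 for the dimmer IL6ST probe. Within slides 2 and 3, IL6R gave 4.70 and 1.96 for DP minus CD8 and 2.34 on slide 3 for CD4 minus CD8. IL6ST gave 3.74 and 1.41 for DP minus CD8, and 3.96 and 2.36 for CD4 minus CD8. The cause was not tested. Differences near 0 changed sign without passing. For CD4 minus CD8, STAT3 gave 0.0065 with quantile normalization, 0.020 with detected probes, 0.13 with normexp and 0.0057 with the value table, and JAK1 gave 0.066 with quantile normalization, 0.125 with normexp, 0.063 with the value table and 0.011 with the slide block. Leaving out each array, STAT3 ran from -0.15 to 0.099 and JAK1 from -0.39 to 0.16 for CD4 minus CD8. Likewise for DP minus CD4, IL6R ran from -0.035 to 0.39, STAT3 from -0.075 to 0.42 and JAK1 from -0.45 to 0.096, and STAT3 ran from -0.13 to 0.36 for DP minus CD8. With the replicate block the member counts were 0 for DP minus CD4, 4 for DP minus CD8 and 3 for CD4 minus CD8, and 1 gene known to respond to STAT3, FAS, passed for DP minus CD4 (limma adjusted p = 0.0285), where it was 0 to 1 leaving out each array. Of 9 pairs of arrays with the same number, 7 had deviations that correlated over 0.1 (range -0.067 to 0.65), and 7 of 9 arrays correlated best with their own number. Since 2 of the 9 pairs did not reach 0.1, the arrays were not treated as paired, although most correlations lean that way. The CD8 numbering differs between the scanner files and the value table, and the block and these correlations depend on it. The deposited files of same-numbered arrays also share a number in their names, and the labels do not say what it stands for. Over all probes the calls for DP minus CD4, DP minus CD8 and CD4 minus CD8 were 47, 50 and 70. They were 144, 83 and 110 with the replicate block, 2, 2 and 38 with the slide block, 1, 7 and 6 with normexp, 109, 87 and 97 without a filter, and 43, 22 and 57 with detected probes. For DP minus CD8, 26 passed in the deposited values. Without DP array 1 there were 2, 1 and 49. Signal over background limits SOCS3, JAK2 and the CD8 values of IL6R.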
